A study of Mus musculus with 4 samples.

Results

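The cells described here are blood B cells in which no molecule of Fcer2 or Cr2 was counted. Fcer2 encodes CD23, a low-affinity receptor for IgE, and Cr2 encodes CD21, a receptor for complement fragments. Both are surface proteins of mature recirculating B cells in the mouse, where young B cells that have just left the bone marrow carry little of either, and where CD23 is also low on marginal zone and B-1 cells. Cells were chosen by counts of unique molecular identifiers (UMIs, 1 per captured RNA molecule): at least 3 UMIs over Cd79b, Ms4a1 and Fcmr, at most 1 over the Cd3 genes, Lyz2 under 5000 CPM (UMIs of a gene per 1000000 UMIs), at most 10% mitochondrial UMIs, limits on Mx2, on the precursor genes Vpreb1, Vpreb2, Igll1 and Rag1 and on the plasma cell genes Mzb1 and Txndc5, and 0 UMIs of Fcer2 and Cr2. They numbered 6288 of 53380 deposited cells, and are called Fcer2/Cr2-zero cells. The 7402 cells that met every other criterion and held at least 1 UMI of Fcer2 or Cr2 are called Fcer2/Cr2-positive cells and are the comparison throughout.

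Mononuclear cells of peripheral blood were isolated on a density gradient, and their 5′ transcript ends were sequenced cell by cell in droplets, with 1 library per time. All groups were wild type C57BL/6J mice of 6 to 8 weeks: a control at 0 h, for which no vehicle treatment is stated, and mice with acute pancreatitis (AP) in which blood was taken at 12 h and 24 h (labelled the initial phase) and 96 h (labelled recovery), counted from the first of 7 intraperitoneal injections of cerulein, a cholecystokinin analogue that overstimulates the acinar cells of the pancreas. The sample labels give the last time as 96 h and the series text gives 168 h. How many animals gave each library is not stated, so a difference between times is a difference between libraries, without a replicate check or a test, and its intervals cover counting error only.

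The control, 12 h, 24 h and 96 h libraries held 1516, 1621, 1513 and 1638 Fcer2/Cr2-zero cells and 1791, 1790, 1468 and 2353 Fcer2/Cr2-positive cells. The median depth was 2683, 2772, 2943 and 3108.5 UMIs per Fcer2/Cr2-zero cell, against 2864, 3058, 3158 and 3407 UMIs per Fcer2/Cr2-positive cell, so the zero cells were shallower in each library. Summed levels of the B cell markers Cd79b, Ms4a1, Spib and Cd72 lay between 2807 and 3618 CPM in the zero cells and between 2422 and 2970 CPM in the positive cells. Cd79b and Ms4a1 were part of the gate; Spib and Cd72 were not and are described with the results. T cell markers summed to 87.9 to 157 CPM in the zero cells, against 93.5 to 150 CPM in the positive cells. At 12 h the zero cells held more RNA of other lineages: NK markers summed to 504 CPM in the zero cells, against 372 CPM in the positive cells, monocyte markers to 1162 CPM, against 932 CPM, and platelet markers to 137 CPM, against 48.5 CPM. At 96 h NK markers were lower in the zero cells, at 271 CPM, against 393 CPM in the positive cells. The gene names of the matrices are partly those of the rat, 28 of them beginning with RT1- and 0 with H2-, and are given here as the files spell them. Another 1691 begin with AABR07, also a form of rat gene name. The samples are labelled as mouse and the processing notes name mm10. Which annotation, or which species, gave these names was not tested. The barcode lists of the 12 h and 24 h libraries were identical (11663 barcodes), but 0 cells had identical counts in any pair of libraries. None of the 14 immunoglobulin constant region names looked for was listed. The heavy chain entry Igh-6 was listed, at 6.94, 13.6, 3.52 and 4.95 CPM in the zero cells of the control, 12 h, 24 h and 96 h libraries, against 10.4, 8.91, 6.34 and 2.71 CPM in the positive cells (log2 fold change 0.06, adjusted p = 0.939, edgeR's quasi-likelihood test with Benjamini-Hochberg adjustment). Isotypes were not analysed here.

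Fcer2/Cr2-zero cells made up 45.8% of the B cells in the control library (exact binomial 95% interval 44.1 to 47.6%), 47.5% at 12 h (45.8 to 49.2%), 50.8% at 24 h (48.9 to 52.6%) and 41.0% at 96 h (39.5 to 42.6%). Relative to control the share was 1.11 times as large at 24 h and 0.895 times as large at 96 h, and at 12 h the intervals of both shares overlapped. A zero is partly a matter of depth: had each B cell of a library held Fcer2 and Cr2 at that library's mean level, random sampling at the cells' own depths would have left 37.0%, 38.8%, 41.2% and 30.9% of them without a UMI at 0 h, 12 h, 24 h and 96 h. The observed share was the larger one in each library. With each B cell thinned to 2000 UMIs the shares were 56.3%, 59.8%, 62.4% and 55.6%. Shallower cells were left out, 112, 47, 79 and 59 of the zero cells and 65, 32, 36 and 25 of the positive cells at 0 h, 12 h, 24 h and 96 h. After thinning the ratio of 96 h to control was 0.988 (95% interval 0.948 to 1.03), and that of 12 h to control was 1.06 (1.02 to 1.11). A 0 in 1 cell therefore does not show that the cell lacked these transcripts.

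**Figure D1:**
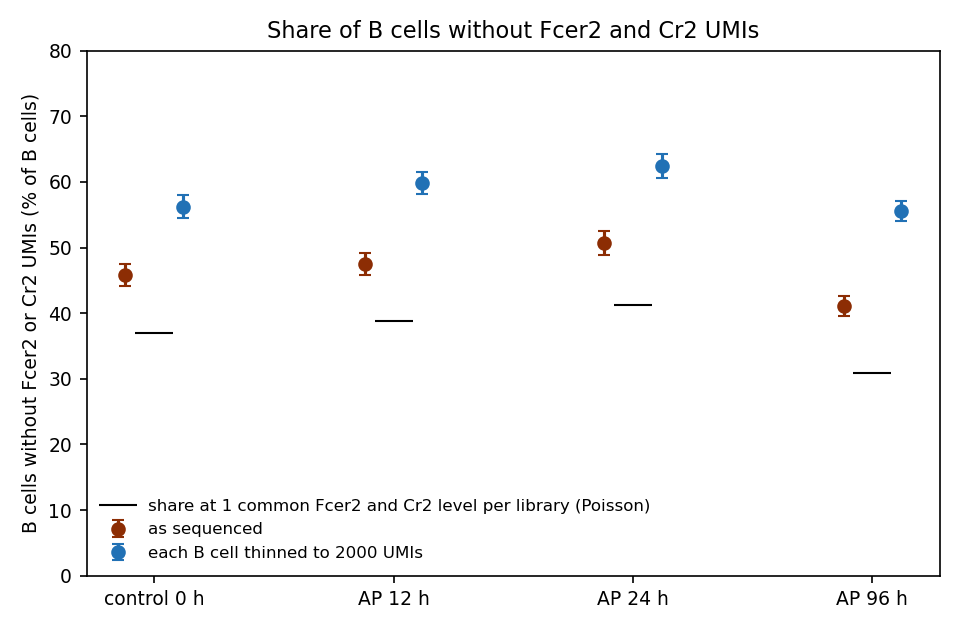
Percentage of B cells without a UMI of Fcer2 or Cr2 in each library, as sequenced and with each cell thinned to 2000 UMIs (bars, exact 95% binomial intervals), with the share that 1 common level of both genes per library would give (black dashes). The observed share lies above the dash in all 4 libraries, and is highest at 24 h at 50.8%.

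Compared with Fcer2/Cr2-positive cells of the same library, Fcer2/Cr2-zero cells had more RNA of Akap12, Fam129c, Tifa, Thy1, Sox5, Zeb2, Spib, Cd72 and Vim, and less of Tpst1, Bcl2, Grap and Zfp318. UMIs were summed per library and group, and the sums were compared with edgeR's quasi-likelihood test with the library as a block (4 pairs, Benjamini-Hochberg adjustment over 9254 genes, genes of the gate left out). Higher in the zero cells were 318 genes (3.44% of those tested) and lower were 318 (3.44%), together 6.87%. Of these, 299 of the higher and 285 of the lower genes had the same direction in all 4 libraries. The higher genes differed more: their median log2 fold change was 0.37 and 46 passed 2-fold, while the lower genes fell by a median of 0.18 on the log2 scale and 2 passed 2-fold. The libraries are of different times and nothing in the labels ties them to separate animals, so these p-values measure only the spread of the difference between these 4 libraries, which may be technical.

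Akap12, a scaffold that anchors protein kinase A, had 52.9, 72.5, 59.9 and 104 CPM in the zero cells of the control, 12 h, 24 h and 96 h libraries, against 30.4, 36.7, 25.3 and 26.9 CPM in the positive cells. The groups did not overlap, and the gap was widest at 96 h (log2 fold change 1.28 ± 0.11 SE, adjusted p = 4.55e-08, edgeR). T cells, NK cells and Lyz2-high cells of the same libraries held Akap12 at 0.823 CPM or less.

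Fam129c, a B cell protein with a pleckstrin homology domain, had 71.4, 103, 54.5 and 146 CPM in the zero cells, against 33.9, 68.2, 27.1 and 56.3 CPM in the positive cells at the same times (log2 fold change 0.99 ± 0.08 SE, adjusted p = 2.69e-08, edgeR). It was higher in the zero cells of each library, but the groups overlapped across libraries, the 24 h zero cells lying below the 12 h positive cells. Tifa, a TRAF-binding adaptor of NF-kB signalling, averaged 96.5 ± 41.5 CPM in the zero cells and 47.9 ± 10.7 CPM in the positive cells (SD over 4 libraries each), and its log2 fold change was 0.99 ± 0.10 SE. Unlike Akap12 and Fam129c, Tifa was also abundant in Lyz2-high cells, at 150 to 184 CPM.

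The other higher genes named by the rule were higher in 4 of 4 libraries. Ptprj, the receptor tyrosine phosphatase CD148, averaged 91.6 ± 19.98 CPM in the zero cells and 51.0 ± 10.9 CPM in the positive cells (SD, 4 libraries each). Eps8, an actin-regulating adaptor, averaged 30.9 ± 3.37 CPM in the zero cells and 15.9 ± 2.41 CPM in the positive cells. Ubash3b, a phosphatase that dampens antigen receptor signalling, and Dpp4, the surface peptidase CD26, averaged 22.6 and 23.5 CPM in the zero cells and 12.8 and 13.6 CPM in the positive cells. Copg1 (a coatomer subunit), Tapt1, Hivep3 (a zinc finger transcription factor) and Fam213a completed the set with log2 fold changes of 0.94, 0.80, 0.76 and 0.72.

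Cst3, which encodes the secreted protease inhibitor cystatin C, lost its call when few cells were left out. It averaged 78.7 CPM in the zero cells and 47.0 CPM in the positive cells. Without the cells that also held RNA of neutrophils, NK cells, platelets, basophils or plasmacytoid dendritic cells, its log2 fold change was 0.11 (adjusted p = 0.396, edgeR), against 0.68 with them. Such cells were picked by at least 20 UMIs of S100a8 and S100a9, 5 of NK cell genes (Gzma among them) and Ccl5, or 3 of Pf4. Others were picked by at least 3 UMIs of Mcpt8 or 1 of Siglech or Flt3. A fall in these genes without those cells is therefore built in. Those cells were 2.31%, 6.48%, 2.84% and 1.53% of the zero cells at 0 h, 12 h, 24 h and 96 h, and 1.62%, 3.46%, 2.93% and 1.87% of the positive cells. The other 23 named genes kept their calls without them. Among markers of other cell types, Tyrobp, Cd2, Pf4, Gp9 and Siglech were higher in the zero cells, with log2 fold changes of 0.28, 0.46, 0.82, 0.79 and 2.66, and the part of such RNA in the results was not tested beyond leaving those cells out. Dendritic cell markers summed to 4.15 to 9.71 CPM in the zero cells, with Xcr1 at 0, against 0.217 to 2.76 CPM in the positive cells, with Xcr1, Clec9a and Batf3 at 0.

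Tpst1, a sulfotransferase that modifies tyrosines of secreted and surface proteins, fell the most among the named genes. It had 25.3, 21.1, 21.8 and 23.0 CPM in the zero cells, against 54.9, 37.3, 45.3 and 49.3 CPM in the positive cells (log2 fold change -1.07 ± 0.08 SE, adjusted p = 2.88e-09, edgeR). The zero cells were nearly level across the libraries, and the groups did not overlap.

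Bcl2, the survival factor of resting B cells, had 162, 129, 142 and 122 CPM in the zero cells, against 195, 185, 187 and 203 CPM in the positive cells (log2 fold change -0.52 ± 0.05 SE, adjusted p = 1.15e-07, edgeR). Grap, an adaptor of antigen receptor signalling, averaged 151 ± 13.8 CPM in the zero cells and 212 ± 18.4 CPM in the positive cells (SD, 4 libraries each). Zfp318, the nuclear factor needed for IgD in mature mouse B cells, averaged 121 ± 9.54 CPM in the zero cells and 164 ± 19.2 CPM in the positive cells. Dnph1, Piwil4, Il4i1 (a secreted amino acid oxidase), Mefv (pyrin), Chst1, Rasgrp3 (a Ras activator downstream of the antigen receptor) and Fut4 were also lower in 4 of 4 libraries, by 0.48 to 0.60 on the log2 scale. Il4i1 and Mefv lost their calls without the 12 h library (adjusted p = 0.074 and 0.096, edgeR), and Mefv also without the control library (0.051). With DESeq2, Il4i1, Mefv, Rasgrp3 and Fut4 did not pass (adjusted p = 0.126, 0.279, 0.0944 and 0.272).

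**Figure D2:**
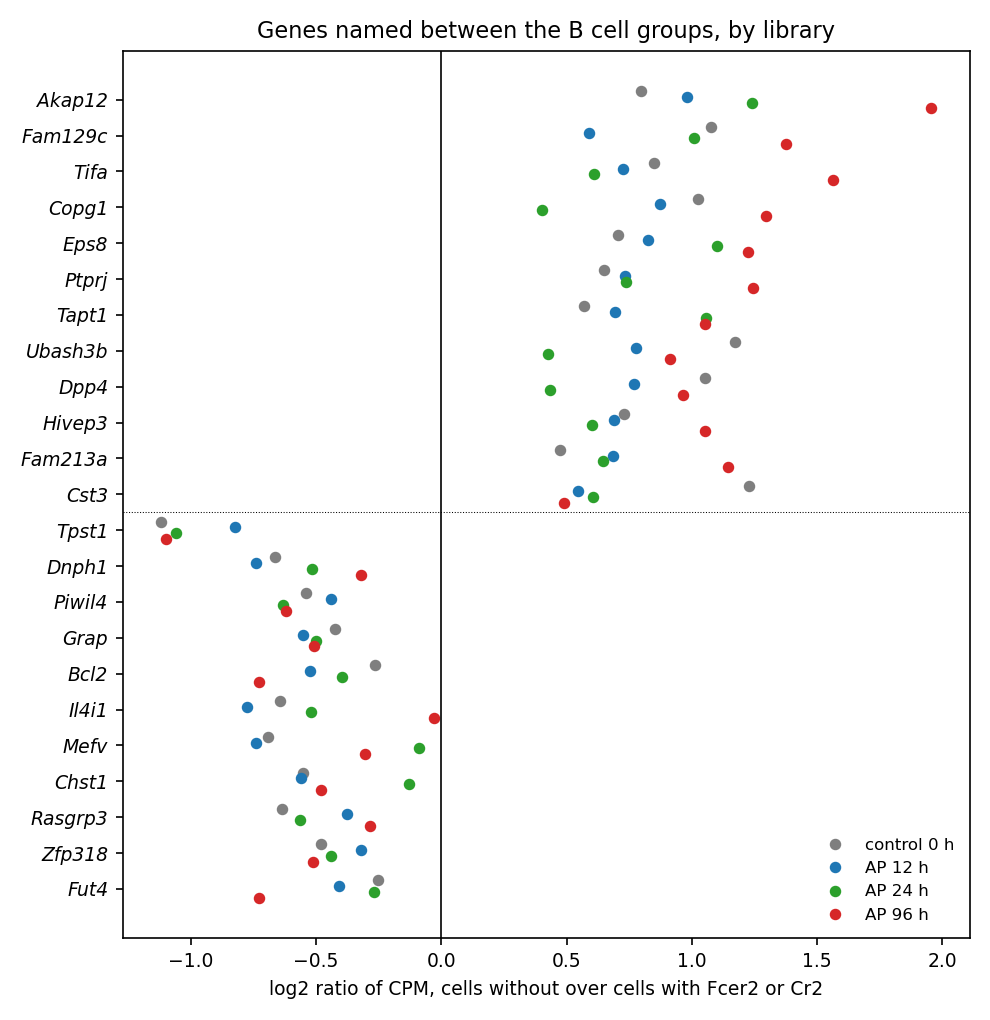
Log2 ratio of CPM in Fcer2/Cr2-zero cells over Fcer2/Cr2-positive cells for the 12 higher (top) and 11 of the 12 lower (bottom) genes named by the rule, 1 point per library. All points lie on 1 side of 0 for each gene; the 96 h library is the farthest right for 8 of the 12 higher genes.

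Each list of B cell genes held members in both directions or members that did not pass the test. Of 11 tested genes of B cell identity, 5 were higher and 3 were lower in the zero cells (3.44% of all genes in each direction). Spib, a transcription factor of B cells, had 273, 321, 252 and 411 CPM in the zero cells, against 189, 230, 196 and 240 CPM in the positive cells (log2 fold change 0.52 ± 0.04 SE). Cd72, an inhibitory co-receptor, had 157, 196, 144 and 256 CPM in the zero cells, against 132, 173, 139 and 154 CPM in the positive cells (0.31 ± 0.06 SE), and the 24 h pair was the closest. Ebf1, Cd37 and Pou2af1 rose by 0.21, 0.28 and 0.15 on the log2 scale, while Ly86 and Cd22 fell by 0.12 and 0.24.

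Of 7 tested genes of immature and transitional B cells, 3 were higher and 1 was lower (3.44% of all genes in each direction). Their median log2 fold change was 0.19, against 0.00 over all genes. Thy1, a surface glycoprotein that in the rat marks young B cells, had 11.9, 20.4, 8.50 and 21.1 CPM in the zero cells, against 3.80, 7.99, 3.46 and 4.55 CPM in the positive cells (log2 fold change 1.64 ± 0.16 SE). Its level in the zero cells was low and followed the library, but each pair had the same order. T cells of these libraries held Thy1 at 0 to 0.803 CPM, although it is a textbook marker of mouse T cells. The reason was not tested, and the gene names are partly those of the rat. Cd24, a surface protein abundant on young B cells, and Akap12 were the other higher members, and Cd38 was lower by 0.19 on the log2 scale. Rag2 and Myb were too scarce to be tested, and Cd93, the classical marker of young mouse B cells, lay at 0 to 0.374 CPM in the zero cells and at 0 to 0.433 CPM in the positive cells.

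Of 16 tested memory and T-bet B cell genes, 4 were higher and 2 were lower (3.44% of all genes in each direction). The lower ones were Ccr6 and Fcrl5, by 0.24 and 0.66 on the log2 scale. The higher ones were Zeb2 (57.8, 58.3, 44.0 and 71.6 CPM in the zero cells, against 41.8, 42.4, 26.9 and 35.6 CPM in the positive cells), Sox5, Vim and Ahnak. Lyz2-high cells held Zeb2 at 126 to 164 CPM and Vim at 3559 to 6019 CPM, and NK cells held Ahnak at 470 to 642 CPM. The part of such RNA was not tested. The defining genes Tbx21 (T-bet) and Itgax (CD11c) differed by -0.07 and 0.06 on the log2 scale and did not pass the test. Of 13 follicular genes, S1pr1 (the receptor for exit from lymphoid tissue), Cd55 and Tnfrsf13c were higher, and Cd22, Cd40 and Satb1 were among the lower ones. Of 5 marginal zone genes tested, Tm6sf1 was higher and 0 were lower. Lyz2-high cells held Tm6sf1 at 105 to 145 CPM, against 7.88 to 13.1 CPM in the zero cells. Of 9 B-1 cell genes, Anxa2 was higher and Fcrl5 was lower, and Cd5 stayed at or under 0.56 CPM in the zero cells. With at most 1 gene called each way, the marginal zone and B-1 counts say nothing particular about these lists.

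Genes of antigen presentation and activation that passed the test were lower in the zero cells. Of 11 class II presentation genes, 8 fell and 0 rose, by little: Cd74, the class II invariant chain, fell by 0.07 and RT1-DOa by 0.28 on the log2 scale, and RT1-Ha by 0.34. RT1-Da had 8380, 5566, 7304 and 7680 CPM in the zero cells, against 8868, 6038, 7709 and 8835 CPM in the positive cells. Of 17 activation genes, 6 fell and 0 rose: Cd83, Cd40, Nfkbia, Ebi3, Ccl3 and Myc. Of 11 BAFF receptor and survival genes, Bcl2, Birc3, Nfkb1 and Nfkb2 fell, while Tnfrsf13c (the BAFF receptor) and Bcl2l1 rose. Bcl2l1 was scarce, at 3.14 to 8.85 CPM in the zero cells, and NK cells held it at 32.3 to 51.7 CPM. At 96 h, 33 of its 50 zero-cell and 39 positive-cell UMIs lay in a small Akap12-led cluster described below. Outside that cluster the 96 h zero cells had Bcl2l1 at 3.26 CPM, against 4.12 CPM in the positive cells. Of 16 antigen receptor signalling genes, Cd81 was the 1 that rose, and Rasgrp3 fell. Counts near the 3.44% of all genes called in each direction say nothing particular about a list. This holds for the interferon response (1 higher and 1 lower of 17), the cell cycle (1 higher and 0 lower of 10) and the immediate early genes (0 higher and 1 lower of 16).

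These differences were set against the count of Fcer2 and Cr2 UMIs in each cell, with no test. In the control library Fam129c had 71.4 CPM in cells with 0 UMIs, 33.8 CPM with 1, 31.3 CPM with 2 and 36.7 CPM with 3 or more. In the same order it had 103, 69.1, 60.3 and 74.1 CPM at 12 h and 146, 66.3, 48.2 and 51.2 CPM at 96 h. Cells with 0 UMIs were the highest in each library, and cells with 1 UMI lay above those with 3 or more at 96 h and below them in the other libraries. Spib had 273, 190, 183 and 194 CPM in control and 411, 270, 225 and 217 CPM at 96 h, where it was lower with each added UMI. Tpst1 had 25.3, 42.3, 62.0 and 70.6 CPM in control and 21.1, 32.2, 31.3 and 51.6 CPM at 12 h. Cells with 0 UMIs were the lowest and cells with 3 or more the highest in all 4 libraries, and likewise for Grap, with 155, 191, 207 and 242 CPM in control and 135, 185, 185 and 204 CPM at 96 h. The median depth of the control cells was 2683, 2760, 2946 and 3010.5 UMIs, so depth moved with the count. With every cell thinned to 2000 UMIs the 24 named genes kept their calls, though the log2 fold change of Cst3 was 0.29, against 0.68 unthinned. The groups were those set before thinning. Thinning therefore evened the depth of the cells but could not show how far depth decided which cells were zero cells. In cells of at least 3000 UMIs, Ubash3b, Il4i1 and Mefv lost theirs (adjusted p = 0.0517, 0.0874 and 0.329, edgeR).

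**Figure D3:**
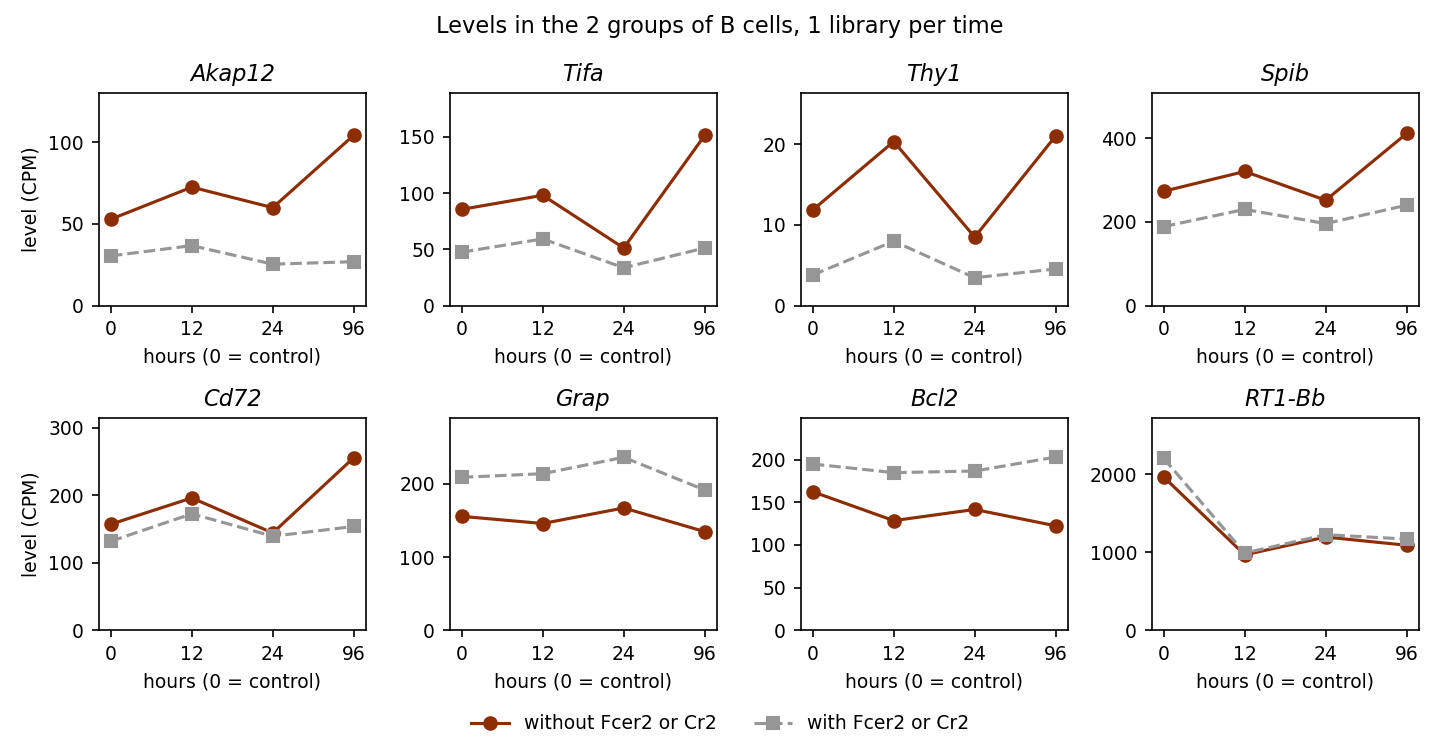
Level in CPM of 8 genes in Fcer2/Cr2-zero cells and Fcer2/Cr2-positive cells of each library, plotted by hour with the control at 0 and equal spacing between times. Akap12, Tifa, Thy1, Spib and Cd72 are higher and Grap and Bcl2 lower in the zero cells throughout; RT1-Bb is lower in both groups after control (968 CPM at 12 h, against 1965 CPM in control zero cells).

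All B cells of both groups were clustered together without the genes of the gate. Of 11 clusters, 1 was led by Fam129c, Thy1, Hivep3 and Ptprj and had a larger share of zero cells than the other large clusters. In this Fam129c-high cluster of 2998 cells, 68.9%, 58.2%, 71.1% and 62.2% of the cells lacked Fcer2 and Cr2 at 0 h, 12 h, 24 h and 96 h, against 41.5%, 42.8%, 46.1% and 35.2% of the other B cells. It held 23.9%, 37.6%, 26.3% and 32.7% of the zero cells. Its size depended on the clustering: at a Leiden resolution of 1.2, against 0.8 here, the Fam129c-high cluster kept 51.6% of these cells, held 15.4%, 22.0%, 17.8% and 21.7% of the zero cells, and 81.5%, 76.0%, 76.9% and 80.4% of its cells lacked Fcer2 and Cr2. Since the cluster was built from these cells, its genes are a description and were not tested. The other large clusters went with the library: a cluster led by Tagln2 held 1274 control and 1320 96 h cells but 105 and 128 cells of 12 h and 24 h.

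Inside the Fam129c-high cluster the zero cells had Bcl2 at 90.7, 104, 98.1 and 76.6 CPM in the control, 12 h, 24 h and 96 h libraries, against 185, 141, 157 and 143 CPM in zero cells outside it. Thy1 had 38.9, 49.2, 26.5 and 56.3 CPM inside the cluster, against 3.25, 5.13, 2.23 and 4.90 CPM outside. Cd72 had 333, 350, 284 and 506 CPM inside, against 101, 115, 95.8 and 141 CPM outside. Spib had 626, 583, 521 and 785 CPM inside, against 161, 183, 158 and 241 CPM outside. High Thy1, Cd72 and Spib went with the cluster and not only with its zero cells. Positive cells inside it had Thy1 at 23.6 to 27.1 CPM, against 0.218 to 2.29 CPM in positive cells outside it, Cd72 at 294, 313, 307 and 330 CPM and Spib at 429, 420, 476 and 558 CPM. At 24 h their Cd72 lay above that of the zero cells in the cluster. Bcl2 in positive cells was 154, 187, 162 and 143 CPM inside, against 200, 184, 190 and 214 CPM outside, and was not lower inside at 12 h.

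**Figure D4:**
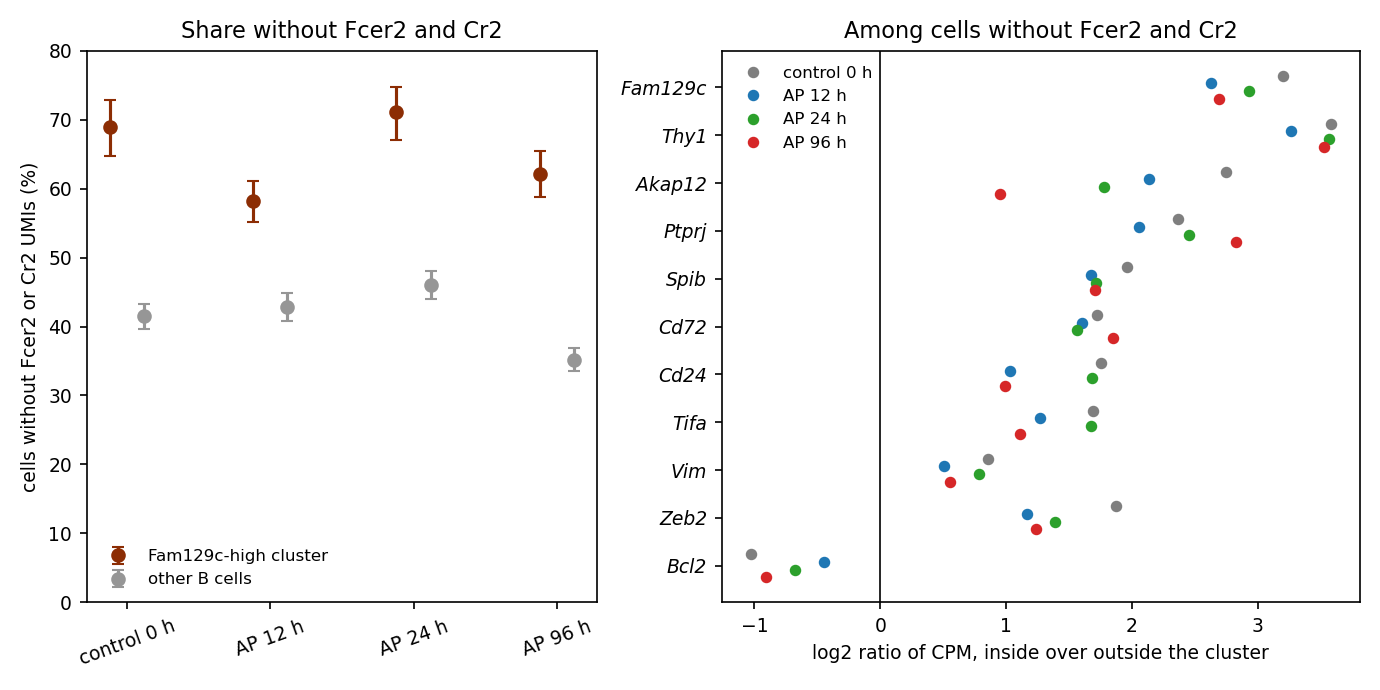
Left, percentage of cells without Fcer2 and Cr2 UMIs inside the Fam129c-high cluster and among the other B cells of each library (exact 95% binomial intervals). Right, log2 ratio of CPM inside over outside the cluster among Fcer2/Cr2-zero cells, 1 point per library. The share inside lies above that outside in 4 of 4 libraries, and Bcl2 lies below 0 and Thy1 above 0 in all of them.

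Without the Fam129c-high cluster, 91 genes were higher and 51 lower in the zero cells, against 318 and 318 with it, and 120 genes were called with and without it. Of the 12 higher named genes, Akap12, Fam129c, Tifa and Cst3 kept their calls, and the other 8 did not pass the test. Hivep3 turned to -0.11 on the log2 scale. The cluster was picked by its Fam129c level, and Hivep3, Ptprj and Eps8 were also among its leading genes. Smaller differences in such genes were therefore built into its removal, and these lost calls are a description. Of the 12 lower named genes, 9 kept their calls, among them Tpst1 (log2 fold change -1.03), Grap (-0.34) and Bcl2 (-0.35).

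A second, small cluster was led by Akap12, Myb, Tifa, Bcl2l1 and Rag2, and 44 of its 48 cells came from the 96 h library, with 1, 3 and 0 from the control, 12 h and 24 h libraries. Of the 44, 42 were Fcer2/Cr2-zero cells. In these 44 cells Akap12 had 1435 CPM, against 70.9 CPM in the other zero cells of 96 h. Rag2, a recombinase gene of developing lymphocytes, was counted in 11 of the 44 cells, Myb in 20, and Sox5 in 0. Just outside the rule lay 38 cells of the 96 h library that failed it only by their UMIs of Vpreb1, Vpreb2, Igll1 and Rag1, genes of B cell precursors, against 0 such cells in each of the control, 12 h and 24 h libraries. Leaving the small cluster out changed the number of genes called to 322 higher and 325 lower, and all 24 named genes kept their calls.

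At 96 h the zero cells held more RNA of Fam129c, Akap12, Tifa and Cd72 than in control. Genes at least 2-fold from control numbered 4 higher (0.160% of 2497 genes) and 5 lower (0.200%). Fam129c had 146 CPM at 96 h, against 71.4 CPM in control (ratio 2.05, 95% interval 1.80 to 2.34), and in positive cells 56.3 CPM at 96 h, against 33.9 CPM in control (1.66, 1.41 to 1.97). Akap12 had 104 CPM at 96 h, against 52.9 CPM in control (ratio 1.97, 1.69 to 2.30), and in positive cells 26.9 CPM at 96 h, against 30.4 CPM in control (0.883, 0.725 to 1.08). The difference between these ratios was not tested. Without the small Akap12-led cluster the Akap12 ratio in zero cells was 1.38 (1.17 to 1.63). Tifa had 151 CPM at 96 h, against 85.5 CPM in control (1.77), with a ratio of 1.08 in positive cells. Much of the Tifa rise lay in the small cluster, whose 44 cells of 96 h had Tifa at 1993 CPM. The other zero cells of 96 h had Tifa at 106 CPM. Cd72 had 256 CPM at 96 h, against 157 CPM in control (1.63, 1.48 to 1.78), and 235 CPM in the zero cells of 96 h outside the small cluster. Fam129c had 134 CPM in those cells.

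Of 7 measured immature and transitional genes, 4 were at least 1.5-fold higher at 96 h in the zero cells (5.00% of all genes) and Spn was at least 1.5-fold lower (6.51%), against 0 of 6 higher in the positive cells. In positive cells 467 of all 9540 genes measured were at least 1.5-fold higher, so 0 of 6 says little. The 4 were Akap12, Cd24, Thy1 and Myb. Myb was measured in zero cells through its 37 UMIs at 96 h, against 7 in control. In positive cells it had 10 and 5 UMIs and was not measured, so the lists of both groups differ. Cd24 had 116 CPM at 96 h, against 67.4 CPM in control (ratio 1.72), and Thy1 21.1 CPM, against 11.9 CPM in control (1.77). Myb, a transcription factor of blood cell progenitors, had 6.55 CPM at 96 h, against 1.57 CPM in control, and its ratio was 4.18 (1.84 to 11.1). The median of the list was 0.78 on the log2 scale, against 0.02 over all genes measured, and without the small cluster it was 0.46. Without that cluster the ratios were 1.38 for Cd24, 1.69 for Thy1 and 1.27 for Myb.

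Ctsh (cathepsin H), Dnaja1 (a co-chaperone) and Dynll1 (a dynein light chain) were higher at 96 h in both groups of B cells. Ctsh had 349 CPM at 96 h, against 157 CPM in control in zero cells (ratio 2.22), and 377 CPM, against 179 CPM in control in positive cells (2.10). S100a4, Aif1, RT1-Bb, Lgals1 and Hnrnpa3 were lower at 96 h, with ratios of 0.431, 0.448, 0.555, 0.498 and 0.551 in zero cells, and of 0.387, 0.467, 0.531, 0.536 and 0.561 in positive cells. Lgals1 was at 1.01 times control in zero cells once cells with RNA of other lineages were left out. Gzma, a cytotoxic granule enzyme of NK and T cells, had 44.9 CPM at 96 h, against 90.5 CPM in control zero cells, and NK markers summed to 271 CPM at 96 h, against 397 CPM in control zero cells. The ratio of Gzma was 0.788 without cells holding RNA of other lineages, which Gzma itself helped to pick. The part of NK cell RNA was not tested. Mcpt8, a basophil protease, had a ratio of 147 at 96 h, and 94.4% of its UMIs lay in 1 cell. Its ratio was 8.50 without cells holding RNA of other lineages, but Mcpt8 was 1 of the genes that picked them.

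At 12 h the largest ratios belonged to genes abundant in neutrophils. S100a8 and S100a9 had 3760 and 2694 CPM at 12 h, against 10.1 and 5.37 CPM in control zero cells, and Mmp8, Lcn2 and Pglyrp1 had 75.1, 83.9 and 67.4 CPM at 12 h, against 0.224, 1.12 and 0.896 CPM. Cells of other lineages carried these transcripts too: S100a8 had 1664 CPM in T cells and 1348 CPM in NK cells at 12 h, against 4.19 and 3.36 CPM in control. The 8 neutrophil markers summed to 21.1, 6666, 2014 and 59.1 CPM in the zero cells at 0 h, 12 h, 24 h and 96 h, and to 18.8, 3119, 3259 and 246 CPM in the positive cells. Cells with at least 20 UMIs of S100a8 and S100a9 were 34 of the 1621 zero cells at 12 h and 0 of 1516 in control. Without cells holding RNA of other lineages the ratio of S100a9 was 67.5, against 501 with them. S100a8 and S100a9 were among the genes that picked those cells, so a fall was built in. Pf4, a platelet chemokine, had 65.6% of its 12 h UMIs in 1 cell. In all, 18 genes were at least 2-fold higher (0.701% of 2569) and 7 at least 2-fold lower (0.272%) at 12 h. Without cells holding RNA of other lineages 5 were higher, a drop partly built into how those cells were picked.

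The genes named as lower at 12 h were below control in both groups of B cells. Map3k8, a kinase of the ERK pathway, had 157 CPM at 12 h, against 408 CPM in control zero cells (ratio 0.384, 95% interval 0.353 to 0.417), and its ratio was 0.382 in positive cells. Insig1, a regulator of sterol synthesis, had 31.4 CPM at 12 h, against 88.2 CPM in control zero cells. Gpr132 and Chrne had ratios of 0.342 and 0.306. RT1-Bb, in the rat a class II beta chain, had 968 CPM at 12 h, against 1965 CPM in control zero cells (0.493, 0.476 to 0.510), and of 11 class II genes 4 were at least 1.5-fold lower (4.58% of all genes) and 0 higher. Of 15 immediate early genes 6 were at least 1.5-fold lower and 0 higher: Egr1 had 18.1 CPM at 12 h, against 45.7 CPM in control zero cells, and Junb 1138 CPM, against 1945 CPM. In positive cells 9 of 16 were lower, against 423 of all 9416 genes measured.

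Of 9 measured B-1 cell genes, 7 were at least 1.5-fold higher at 12 h in the zero cells (11.9% of all genes). The list's median was 1.08 on the log2 scale, against 0.11 over all genes. It was 0.77 in cells of at least 3000 UMIs and also by the mean over cells. In positive cells 4 of 9 were higher, against 982 of all 9416 genes measured, and the list's median was 0.39. All 7 were low in level, at 35.1 CPM or less, and the interval of Cd80 held 1. At 12 h NK cells held Cd9 at 570 CPM and Pdcd1lg2 at 36.1 CPM, against 35.1 and 6.16 CPM in the zero cells. T cells held Zbtb32 at 17.7 CPM, and Lyz2-high cells held Cd80 and Plscr1 at 16.5 and 19.3 CPM, above the zero cells. Sspn and Fcrl5 were lower in T, NK and Lyz2-high cells than in the zero cells. The part of such RNA was not tested. Cd80, Fcrl5, Pdcd1lg2 and Plscr1 had 9, 11, 13 and 16 UMIs in control zero cells. They reached the limit of 20 UMIs over both libraries only with their 12 h UMIs. Sspn, a membrane protein, had 23.3 CPM at 12 h, against 10.8 CPM in control zero cells (ratio 2.17), and was 0.905 times control in positive cells. Zbtb32, a transcription factor, had 9.34 CPM, against 4.48 CPM in control (2.09, 1.22 to 3.70), and Fcrl5, an Fc receptor-like protein, 6.54 CPM, against 2.46 CPM (2.65, 1.32 to 5.79). Few cells made these levels: Sspn had 125 UMIs in 29 zero cells at 12 h and 48 in 16 in control. Zbtb32 had 50 UMIs in 26 zero cells at 12 h and 20 in 15 in control. The intervals take UMIs of the same cell as independent, so they are too narrow for such genes. A cluster of 433 deep cells, with a median of 6491 UMIs, was led by Sspn and Zbtb32 and held 61, 196, 73 and 103 cells at 0 h, 12 h, 24 h and 96 h. Thy1 was 1.72 times control in zero cells at 12 h and 2.10 times in positive cells.

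At 24 h, 13 genes were at least 2-fold higher (0.520% of 2500) and 8 at least 2-fold lower (0.320%). Acer3, an alkaline ceramidase, had 319 CPM at 24 h, against 104 CPM in control zero cells (ratio 3.08, 95% interval 2.78 to 3.43), and was 2.54 times control in positive cells. Car2 (carbonic anhydrase) and Mt1 (a metallothionein) had ratios of 2.38 and 2.09, and RT1-T24-4 one of 1.90. Fkbp5, a target of the glucocorticoid receptor, had 12.5, 24.1, 37.9 and 16.8 CPM in the zero cells at 0 h, 12 h, 24 h and 96 h, and 11.7, 22.4, 32.8 and 15.2 CPM in the positive cells. It was highest at 24 h in both groups, at 3.03 times control in zero cells (2.23 to 4.16). S100a8 and S100a9 were 109 and 156 times control. They were 45.5 and 62.8 times control without cells holding RNA of other lineages, which both genes helped to pick.

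Most interferon response genes were lower at 24 h: 8 of 15 measured members were at least 1.5-fold lower (7.56% of all genes) and 1 higher (6.41%). The list's median was -0.61 on the log2 scale, against -0.02 over all genes. In positive cells 8 of 16 were lower, against 716 of all 9125 genes measured. Oasl2 had 26.7 CPM at 24 h, against 57.3 CPM in control zero cells (ratio 0.466, 95% interval 0.375 to 0.579), and Mx1 46.0 CPM, against 89.1 CPM (0.516, 0.436 to 0.610). Oas1a was the 1 member at least 1.5-fold higher, with 20.1 CPM at 24 h, against 4.93 CPM in control. Ifi27 was above control by less, with 239 CPM at 24 h, against 184 CPM in control zero cells. The gate's limit on Mx2, itself an interferon response gene, had removed 40, 65, 12 and 105 cells without Fcer2 and Cr2 at 0 h, 12 h, 24 h and 96 h. Tagln2 and Ahnak, an actin-binding protein and a membrane scaffold, had ratios of 0.463 and 0.469, and Insig1 one of 0.409. Klf4 had 26.7 CPM at 24 h, against 59.3 CPM in control zero cells (0.451, 0.362 to 0.558), and a ratio of 0.712 in positive cells. The ratios of both groups share no cells but come from the same libraries.

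**Figure D5:**
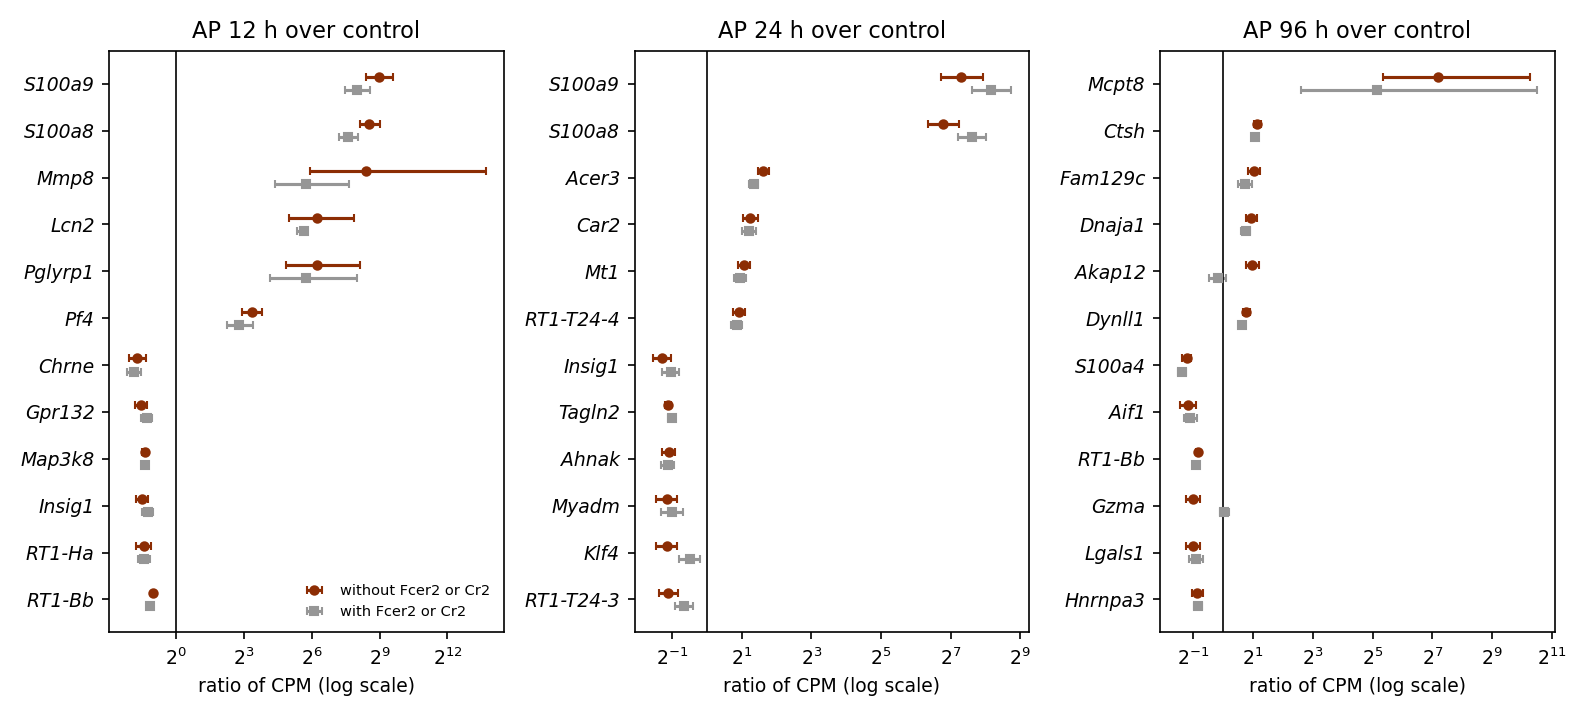
Ratio of CPM at 12 h, 24 h and 96 h over control for the 6 higher and 6 lower genes named at each time, in Fcer2/Cr2-zero cells and Fcer2/Cr2-positive cells (log axis; bars, exact conditional 95% intervals of counting error; for Lcn2 in positive cells, at 0 UMIs in control, the point rests on a floor of 3 counts and has no upper bound). At 96 h Akap12 is 1.97 times control in the zero cells and 0.883 times in the positive cells.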

How the data were processed

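The authors deposited, per library, a matrix of raw UMI counts per gene and cell with gene and barcode lists (unit: counts, not normalized); the submitters' processing notes name the build mm10 and the tools Seurat and Cell Ranger. Their versions are not given in the sources, nor is what each did. How rat gene names arose with the build mm10 is not stated either. Barcode and gene name files hold other, text values. No deposited cell had fewer than 301 genes or over 15.0% mitochondrial UMIs. Cells were taken by matrix column, because the control list has 4340 barcodes for 14569 columns. Members were chosen by the gate; Derl3, which it also names, is not in the gene list and added 0. Members and lists were chosen with earlier results of these data known.

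UMIs were summed per library and group (4465250 to 5652869 UMIs for the zero cells) and scaled to CPM. Groups were compared with edgeR 4.0.16 (TMM, filterByExpr, library block, adjusted p under 0.05); both sums of a pair come from 1 library, so the library pairs them. The test was checked on simulated counts with known changes. Each time was compared with control by the ratio of CPM, with an exact conditional binomial interval and a floor of 3 counts for a 0; 2-fold counts needed 50 CPM in either library and 20 UMIs over both, list members 20 UMIs. Named genes were the 12 largest changes each way at 20 CPM or more with the same sign in 4 libraries and, per time, the 6 highest and 6 lowest ratios ranked by the interval bound nearest to 1, a higher gene reaching 25% of its level in the highest other cell gate; mitochondrial, ribosomal, haemoglobin, immunoglobulin, T cell receptor, Xist, Y-linked, unnamed and gate genes were excepted. Thy1, Cd72, Spib, the time course of Tifa, the clusters and other list members were singled out after their values were seen. Clusters came from scanpy 1.11.5 (Leiden, resolution 0.8, 20 components, 1500 genes, 15 neighbours). Scrublet marked 0.672% to 3.15% of zero cells as doublets; they were kept, and removed as an alternative. Alternatives also covered stricter gates, depth, scaling, DESeq2 1.42.0 and leaving out each library. Some genes of the lists and of the named set are not reported here.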

Additional observations from a re-analysis of the deposited data

Results flagged for a closer look

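Across the 4 libraries the log2 ratio of zero to positive cells was tested for a library far from the others in the 24 named genes, where chance flags about 1 in 20. Ptprj stood apart at 96 h, with 1.24, against 0.65, 0.73 and 0.74 at 0 h, 12 h and 24 h. Cst3 stood apart in the control library, with 1.23, against 0.54, 0.60 and 0.49 at 12 h, 24 h and 96 h. Fam213a moved in opposite directions at 96 h in the groups of B cells: its ratio to control was 1.28 (95% interval 1.09 to 1.51) in zero cells and 0.805 (0.673 to 0.965) in positive cells, a difference that was not tested.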

How the results depend on the processing

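The share of zero cells relative to control at 12 h, 24 h and 96 h was 0.892, 0.615 (reversed) and 0.776 with at most 5% mitochondrial UMIs, which left 15 control zero cells, so the time comparisons were not run there; 1.09, 1.22 and 0.970 in cells of at least 3000 UMIs; and 0.988 at 96 h after thinning. Both sums of a pair come from 1 library, and without the replicate block 16 genes were called (15 higher, 1 lower), against 636 with it. Calls in both directions, higher and lower were 8, 7 and 1 at 5% mitochondrial UMIs, 315, 186 and 129 in cells of at least 3000 UMIs, 142, 91 and 51 without the Fam129c-high cluster, and 237, 104 and 133 with DESeq2. Leaving out 1 library at a time gave 462 to 609, 223 to 303 and 231 to 306. Hivep3 reversed to -0.11 without the Fam129c-high cluster, which Hivep3 helped to lead. Lgals1 at 96 h reversed to 1.01 without cells holding RNA of other lineages. The causes were not tested. Genes at least 2-fold higher at 12 h (18) numbered 11 with Lyz2 under 1000 CPM and by the mean over cells, 28 in cells of at least 3000 UMIs, 5 without cells holding RNA of other lineages and 46 at 20 CPM; those lower (7) 11 in cells of at least 3000 UMIs and 21 at 20 CPM. At 24 h the higher (13) numbered 7 with Lyz2 under 1000 CPM and 30 at 20 CPM, and the lower (8) 13 in cells of at least 3000 UMIs and 17 at 20 CPM. At 96 h the higher (4) numbered 16 at 20 CPM, and the lower (5) 18 in cells of at least 3000 UMIs, 13 at 20 CPM, and 3 without Scrublet doublets, without cells holding RNA of other lineages, without the small Akap12-led cluster or by the mean over cells. With 1 library per time, intervals cover counting error only, and a 0 at these depths does not show absence.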
